A study of Mus musculus with 12 samples.

Results

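The genes described here are 39 mouse genes of DNA repair, out of 12845 genes measured, and all 39 were present in both deposited tables. They were taken by symbol and sorted into 9 groups by role: the Fanconi anemia core complex and its anchor (8 genes), the Fanconi D2-I pair (2), BRCA1 and BRCA2 with their partners (4), the MRN complex (3), the complexes that hold XRCC2 or XRCC3 (4), RAD54 and BLM (3), the damage kinases with the ATR partner ATRIP (5), mismatch repair (6) and non-homologous end joining (4). RNA was sequenced from primordial germ cells (PGCs, the embryonic precursors of eggs and sperm) and from the somatic cells of the same gonads at E13.5, a mid-gestation embryonic stage. Embryos came from Oct4GFP reporter mice crossed with ICR mice, and all groups share that cross; cells with the green signal were sorted as PGCs and cells without it as soma, which left all somatic cell types mixed. Each sex gave a PGC group and a soma group, 4 in all, with 3 libraries each and no treatment. Spike-in RNA was matched to the number of cells, and the authors deposited 1 table scaled to cell number and 1 scaled to read depth.

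The Fanconi pathway repairs crosslinks between the DNA strands: a core complex docks on stalled replication forks and attaches ubiquitin to FANCD2 and FANCI, which recruit nucleases and the recombination proteins. Homologous recombination copies an intact sister or homolog, with MRN trimming the broken end, BRCA1, PALB2 and BRCA2 preparing it for strand exchange, and the XRCC2 and XRCC3 complexes, RAD54 and BLM shaping and resolving the joint; end joining instead ligates broken ends directly, and mismatch repair removes replication errors. Several Fanconi mutants are known to lose germ cells in the embryo, when PGCs divide rapidly, and at this age female germ cells enter meiosis while male germ cells slow their division.

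Values per library are given as CPM, reads per 1000000 reads in the table, from whole reads recovered from the deposited cell-number table. Libraries held 6454322 to 24791414 reads. Differences are log2 differences of the deposited values ± SE from limma over all 12 libraries, with Benjamini-Hochberg adjustment over the 12845 genes and a threshold of 0.05; "read depth" and "per cell" name the table. Deposited read-depth differences were on the whole smaller than those of the recovered reads at every depth, most so for genes with few reads (slope across genes 0.482 under 100 mean reads and 0.708 to 0.794 above). In bulk libraries fewer cells of a type and less RNA per cell cannot be told apart. The sort was checked on 8 germ cell markers, which summed to 3381 to 4958 CPM in PGC libraries and 10.7 to 17.6 CPM in male soma, and on 7 markers of gonadal soma and stroma, which summed to 1152 to 3075 CPM in soma and 5.74 to 39.7 CPM in PGCs. Supporting cell markers were less far apart: 5 Sertoli cell markers summed to 51.4 to 119 CPM in male PGCs against 650 to 756 CPM in male soma, and to 7.65 to 9.76 CPM in female PGCs. The 5 pregranulosa cell markers summed to 35.5 to 52.5 CPM in female PGCs against 280 to 361 CPM in female soma, and to 15.5 to 22.0 CPM in male PGCs; the part of these cells in the PGC values was not tested. Female soma replicates 1 and 2 held 107 and 162 CPM of the germ cell markers, against 16.9 CPM in replicate 3, and erythroid markers summed to 17096 to 28855 CPM in the 3 female soma libraries and to 3093 to 8255 CPM in male soma. Per cell, male soma replicate 3 stood apart, with a median gene at 5.25 on the log2 scale against 4.33 and 4.29. The labels do not say whether replicates were separate litters or pools, so p-values measure the spread between these libraries only.

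Repair gene transcripts took a larger share of the RNA in PGCs of both sexes. The 39 genes together made up 3528 ± 203 CPM in male PGCs (SD, n = 3) and 1144 ± 21.3 CPM in male soma, and 4704 ± 224 CPM in female PGCs against 1267 ± 58.2 CPM in female soma. At equal read depth, 35 of 39 were higher and 1 lower in male PGCs than in male soma, where 39.1% of all genes were higher and 43.7% lower. In females 35 were higher and 2 lower, with 38.7% of all genes higher and 42.3% lower. The median log2 difference of the 39 was 1.02 in males and 1.26 in females, beside -0.06 and -0.05 over all genes. Centring each library on its median moved the share of higher genes among all called ones from 47.3% to 57.0% in males and from 47.7% to 56.6% in females. The CPM values of PGC and soma libraries did not overlap for 37 of the 39 in either sex, 35 with PGCs above and 2 with PGCs below, where 37.6% of all genes in males and 39.1% in females had PGCs above and 47.4% and 42.7% had PGCs below.

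Per cell, every one of the 39 was called higher in PGCs in each sex by limma, and by limma with voom weights, and none was lower at an unadjusted p under 0.05 (0 of 39 in males and 0 in females). The background there was high: 64% of all genes were higher per cell in male PGCs and 77.2% in female PGCs, and 19.8% and 11.5% were lower. The median of the 39 was 2.90 in males and 4.10 in females on the log2 scale, beside 1.42 and 2.36 over all genes.

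**Figure D1:**
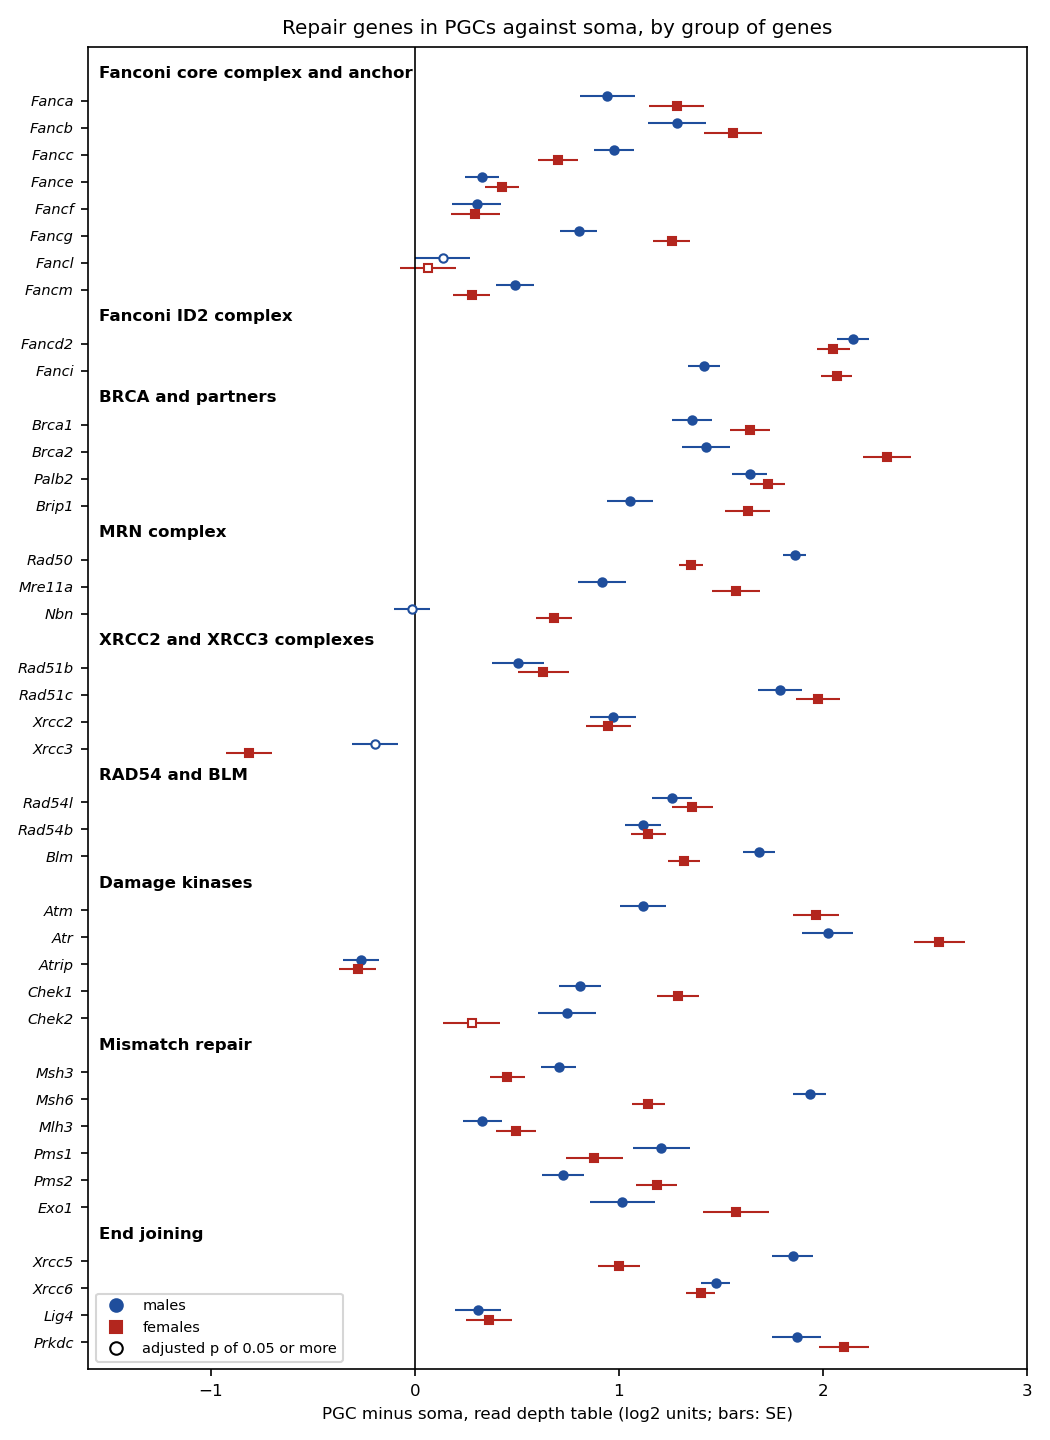
Log2 difference between PGC and soma at equal read depth (x axis) for each of the 39 genes (y axis), grouped by role, with standard errors from limma as bars, circles for males and squares for females; open markers were not called, and the line is at 0. Most genes lie right of 0 in both sexes, Atr is farthest right in females at 2.57, and Xrcc3 is farthest left in females at -0.81.

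In the Fanconi core complex, the ubiquitin ligase assembly that acts on FANCD2 and FANCI, 7 of 8 genes were higher in PGCs in each sex, and Fancl was not called in either. Median log2 differences were 0.65 in males and 0.56 in females. Fanca, which encodes a structural subunit, stood at 46.0, 86.4 and 64.2 CPM in male PGCs against 28.0, 28.0 and 30.3 in male soma. Female PGCs had 104, 102 and 126 CPM of Fanca and female soma 37.5, 32.5 and 32.8. PGC and soma libraries did not overlap, and the male PGC libraries spread more than any other group; the differences were 0.94 ± 0.13 and 1.28 ± 0.13 (adjusted p = 1.45e-05 and 6.84e-07). Fancb, an X-linked subunit that scaffolds the catalytic module, read 23.1, 27.2 and 32.2 CPM in male PGCs and 8.52, 9.12 and 6.09 in male soma. In female PGCs it read 42.2, 42.0 and 47.6 CPM, above the 10.6, 10.7 and 6.48 of female soma. Again no library of one cell type reached the range of the other, and the differences were 1.28 ± 0.14 in males and 1.56 ± 0.14 in females (adjusted p = 1.13e-06 and 1.73e-07).

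Fancg, another subunit of the FANCA module, had 38.6, 34.0 and 30.9 CPM in male PGCs and 14.7, 17.7 and 18.8 in male soma. In females Fancg read 63.4, 64.8 and 62.4 CPM in PGCs and 19.2, 18.6 and 19.5 in soma. All 3 female PGC libraries were above all male PGC libraries, and the PGC-soma difference was larger in females (1.26 ± 0.09) than in males (0.80 ± 0.09), by 0.45 ± 0.13 (adjusted p = 0.00837). Of the other 5 genes, Fancc was higher in PGCs by 0.98 ± 0.10 in males and 0.70 ± 0.10 in females, and the anchor and translocase Fancm by 0.49 ± 0.09 and 0.28 ± 0.09. Fance and Fancf, subunits that link the core to its substrates and to its anchor, were higher by 0.33 and 0.30 in males and 0.43 and 0.30 in females; the female call for Fancf was lost without female soma replicates 1 and 2 (0.19, adjusted p = 0.333). Fancl, which encodes the RING-finger ligase subunit itself, had overlapping libraries. Male PGCs averaged 18.9 ± 1.86 CPM of Fancl (SD, n = 3) and male soma 17.8 ± 2.6, and the female groups averaged 19.1 ± 0.0978 for PGCs and 18.3 ± 5.21 for soma. Its differences were 0.14 ± 0.14 in males and 0.06 ± 0.14 in females (adjusted p = 0.366 and 0.67).

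The substrates of the ligase, FANCD2 and FANCI, form a clamp on DNA. At equal read depth both transcripts differed more between PGCs and soma than any core subunit. In males this did not hold for Fanci on other scales. Its CPM ratio of PGCs to soma was 3.40 there, beside 3.47 for Fancb, and the per-cell differences were 3.39 and 3.43. Fancd2 stood at 131, 133 and 143 CPM in male PGCs and at 17.9, 23.6 and 22.3 in male soma. In females the values were 143, 136 and 140.5 CPM in PGCs and 23.5, 21.5 and 20.3 in soma. These values did not separate the sexes within either cell type, and PGCs were higher by 2.15 ± 0.08 in males and 2.05 ± 0.08 in females (adjusted p = 1.63e-11 and 5.64e-11). Fanci, by contrast, read 73.9, 79.7 and 71.5 CPM in male PGCs and 158, 134 and 159 in female PGCs. Its soma values were close in the sexes, 20.5, 24.0 and 21.8 CPM in males and 21.9, 24.1 and 23.0 in females. The PGC-soma difference of Fanci was 1.42 ± 0.08 in males and 2.07 ± 0.08 in females, and it was larger in females by 0.65 ± 0.11 (adjusted p = 2.33e-04). About 16.0% of the exon bases of Fanci overlap Polg on the opposite strand, and whether the counting used strand is not stated in the labels.

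The 4 BRCA genes were higher in PGCs in both sexes, with medians of 1.39 in males and 1.69 in females at equal read depth. All 4 were also higher in female than in male PGCs at equal read depth. Per cell Brca2 and Brip1 were called higher in female PGCs. Brca1 (0.57 ± 0.29, adjusted p = 0.0996) and Palb2 (0.58 ± 0.33, adjusted p = 0.145) were not. Brca1 encodes a ubiquitin ligase that favours end resection and recombination. Male PGC libraries held 111, 166 and 120.2 CPM of Brca1 and male soma 41.3, 44.9 and 39.4. In females the PGC libraries had 210.3, 212 and 198 CPM and the soma 47.8, 48.8 and 47.7. The groups did not overlap, with male PGC replicate 2 higher than the other male PGC libraries; the differences were 1.36 ± 0.10 and 1.64 ± 0.10 (adjusted p = 1.24e-08 and 2.45e-09). Brca2 encodes the loader of the strand-exchange protein. It read 108, 149.8 and 129.5 CPM in male PGCs and 34.3, 45.4 and 36.8 in male soma, and 459, 435 and 332 CPM in female PGCs and 50.3, 58.8 and 53.3 in female soma. Female PGC libraries were all above male ones, with a CPM ratio of 3.17, and every PGC library was above every soma library. The PGC-soma difference was 1.43 ± 0.12 in males and 2.32 ± 0.12 in females, larger in females by 0.89 ± 0.17 (adjusted p = 4.81e-04).

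Palb2 encodes the bridge between BRCA1 and BRCA2. Its libraries read 49.2, 50.7 and 47.5 CPM in male PGCs and 9.5, 10.7 and 12.7 in male soma. In females they read 77.7, 80.9 and 78.0 CPM in PGCs and 15.7, 14.9 and 15.8 in soma. PGCs were above soma in every library, by 1.64 ± 0.09 in males and 1.73 ± 0.09 in females (adjusted p = 4.12e-10 and 4.08e-10), and that difference was not called different between the sexes (0.09 ± 0.12, adjusted p = 0.549). Brip1, the BRCA1-associated helicase, averaged 54.4 ± 5.95 CPM in male PGCs and 100.6 ± 11.5 in female PGCs, against 21.9 ± 2.23 and 22.4 ± 4.24 in soma. Its PGC-soma difference was larger in females by 0.58 ± 0.16 (adjusted p = 0.0064).

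At equal read depth the MRN complex, which senses broken ends and begins their resection, did not move as a unit. Rad50 was lower, and Mre11a and Nbn higher, in female than in male PGCs. Per cell Mre11a and Nbn were again called higher (1.11 ± 0.30 and 0.88 ± 0.32), and Rad50 was not called (-0.36 ± 0.28, adjusted p = 0.307). The sex difference of the PGC-soma difference of Rad50 was not called per cell either (0.28 ± 0.40, adjusted p = 0.575). Rad50 encodes the ATPase arm of the complex. It stood at 234, 240.5 and 242 CPM in male PGCs and 48.2, 52.3 and 49.6 in male soma, and at 205, 195 and 196 in female PGCs and 63.1, 56.9 and 59.4 in female soma. The groups were tight and did not overlap, with male PGCs highest; PGCs were higher by 1.86 ± 0.06 in males and 1.35 ± 0.06 in females, a smaller difference in females, with a difference of -0.51 ± 0.08 (adjusted p = 1.39e-04). Mre11a encodes the nuclease. Male PGC libraries held 67.7, 59.6 and 54.9 CPM and male soma 25.1, 29.4 and 30.1. Female PGC libraries held 149.6, 144 and 127 CPM and female soma 27.1, 45.1 and 31.4, with replicate 2 the highest soma library. The PGC-soma difference was 0.92 ± 0.12 in males and 1.57 ± 0.12 in females, larger in females by 0.66 ± 0.17 (adjusted p = 0.00456).

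Nbn encodes the subunit that brings ATM to the break, and it was among the few members not called higher in male PGCs. It read 30.2, 29.8 and 30.0 CPM in male PGCs and 36.7, 28.6 and 34.3 in male soma, ranges that overlap. Female PGC libraries held 64.8, 60.6 and 52.4 CPM, above the 31.0, 31.5 and 30.6 of female soma. In males the difference was -0.01 ± 0.09 (adjusted p = 0.887) and in females 0.68 ± 0.09 (adjusted p = 6.11e-06), and the difference between the sexes was 0.70 ± 0.13 (adjusted p = 3.53e-04). Per cell Nbn was higher in male PGCs too, by 1.49 ± 0.32 (adjusted p = 4.33e-06), close to the 1.42 median of all genes.

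The subunits of the XRCC2 and XRCC3 complexes, which assist strand exchange, did not move as a block. Rad51c is shared by both complexes and has a known role in meiotic recombination. Its libraries read 66.6, 65.5 and 57.8 CPM in male PGCs against 10.9, 12.4 and 14.5 in male soma, and 77.5, 59.5 and 74.3 in female PGCs against 9.67, 12.3 and 9.79 in female soma. PGC and soma values were far apart and the sexes overlapped within PGCs, with differences of 1.79 ± 0.11 and 1.98 ± 0.11 (adjusted p = 1.55e-09 and 8.82e-10). Xrcc2, which sits at the other end of the larger complex, read 34.8, 40.4 and 31.3 CPM in male PGCs and 13.7, 16.2 and 14.1 in male soma. In females it read 41.2, 49.4 and 38.5 CPM in PGCs and 18.2, 14.4 and 18.1 in soma. Its differences were 0.97 ± 0.11 and 0.95 ± 0.11, with no overlap between cell types. Rad51b, a further subunit of the larger complex, stood at 7.07, 7.79 and 5.93 CPM in male PGCs and 4.04, 3.23 and 3.75 in male soma. Female PGCs held 15.4, 15.3 and 13.9 CPM and female soma 6.45, 5.52 and 8.9. PGC libraries were above soma libraries in each sex, by 0.51 ± 0.13 in males and 0.63 ± 0.13 in females (adjusted p = 0.00194 and 3.60e-04).

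Xrcc3, the partner of RAD51C in the smaller complex, went the other way. It read 14.2, 15.2 and 15.02 CPM in male PGCs and 21.0, 20.01 and 18.3 in male soma. In female PGCs it read 8.1, 6.04 and 9.56 CPM, below the 20.3, 18.3 and 19.7 of female soma. PGC libraries lay below soma libraries in both sexes, and the female PGC libraries were the lowest of all 12. The fall was called in females (-0.81 ± 0.11, adjusted p = 1.03e-05) and not in males (-0.19 ± 0.11, adjusted p = 0.118), and the difference between them was -0.62 ± 0.16 (adjusted p = 0.0042). Per cell, Xrcc3 was higher in PGCs by 1.21 ± 0.38 in males and 1.11 ± 0.38 in females, both below the medians of all genes. Centring libraries on their medians turned these per-cell differences to -0.000126 and -1.09, and the female call was lost without female soma replicates 1 and 2 (0.85, adjusted p = 0.153).

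RAD54 proteins remodel chromatin during strand exchange, and BLM is the helicase that dissolves joined DNA molecules; all 3 genes were higher in PGCs in both sexes. Rad54l stood at 72.2, 85.2 and 58.8 CPM in male PGCs and 26.3, 21.8 and 24.1 in male soma. Female PGC libraries held 91.8, 81.0 and 87.4 CPM and female soma 24.5, 25.2 and 24.0. PGC and soma did not overlap, and the differences were 1.26 ± 0.10 and 1.36 ± 0.10 (adjusted p = 3.01e-08 and 1.75e-08). Rad54b, its paralog, read 55.5, 60.7 and 52.9 CPM in male PGCs and 20.8, 21.7 and 21.2 in male soma. In females it read 59.0, 55.3 and 70.8 CPM in PGCs and 20.6, 19.6 and 21.9 in soma. The sexes overlapped in both cell types, and PGCs were higher by 1.12 ± 0.09 and 1.15 ± 0.09; 35.8% of the exon bases of Rad54b are shared with Fsbp on the same strand, so reads of these genes could be split. Blm read 183, 182 and 189 CPM in male PGCs and 43.6, 51.5 and 40.2 in male soma, and 137, 149 and 146 in female PGCs and 40.1, 47.7 and 44.6 in female soma. Male PGC libraries were all above female ones, and the PGC-soma difference of 1.32 ± 0.08 in females was smaller than the 1.69 ± 0.08 in males, with a difference of -0.37 ± 0.11 (adjusted p = 0.0118).

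Among the damage kinases 4 of 5 were higher in male PGCs and 3 in female PGCs, with Atrip lower in both. ATR responds to single-stranded DNA at stalled forks and to unsynapsed chromosomes in meiosis. Atr stood at 275, 253 and 291 CPM in male PGCs and 43.9, 49.9 and 55.1 in male soma. Female PGC libraries held 708, 721 and 537 CPM, and female soma 58.5, 94.0 and 63.2, with replicate 2 the highest soma library. Every female PGC library was above every male one, and the PGC-soma difference was 2.02 ± 0.12 in males and 2.57 ± 0.12 in females (adjusted p = 2.02e-09 and 3.21e-10), larger in females by 0.55 ± 0.18 (adjusted p = 0.0165). Atrip encodes the obligate partner of ATR, yet its share was not raised. Atrip read 17.9, 18.1 and 19.3 CPM in male PGCs and 25.9, 25.1 and 27.2 in male soma, and 26.1, 25.6 and 20.7 in female PGCs and 30.6, 33.4 and 31.4 in female soma. PGC libraries lay below soma libraries in both sexes, with differences of -0.26 ± 0.09 in males and -0.28 ± 0.09 in females (adjusted p = 0.0143 and 0.0103). Centring libraries on their medians ended both calls (-0.02 and -0.08), leaving out female soma replicates 1 and 2 ended the female one (adjusted p = 0.0766), and quantile normalization turned the male difference to 0.11; 16.0% of the exon bases of Atrip are shared with Trex1 on the same strand.

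ATM responds to double-strand breaks, including those made on purpose at the start of meiosis. Atm read 109.6, 149 and 127 CPM in male PGCs and 48.6, 53.2 and 51.1 in male soma. Female PGCs held 417, 379.7 and 288 CPM and female soma 56.2, 68.7 and 68.8. Female PGC libraries stood above male ones by a CPM ratio of 2.81, and the PGC-soma difference was 1.12 ± 0.11 in males and 1.97 ± 0.11 in females, larger in females by 0.85 ± 0.16 (adjusted p = 5.31e-04). Chek1 encodes the effector kinase of ATR. Its libraries read 55.2, 80.1 and 63.0 CPM in male PGCs and 33.8, 35.6 and 31.7 in male soma, and 140.2, 132 and 137 in female PGCs and 36.9, 43.1 and 48.7 in female soma. Again female PGCs were highest, without overlap, and the difference from soma was 0.81 ± 0.10 in males and 1.29 ± 0.10 in females, larger in females by 0.48 ± 0.15 (adjusted p = 0.0125). Chek2 encodes the effector kinase of ATM, which removes damaged oocytes later in life. It read 28.2, 33.8 and 28.4 CPM in male PGCs and 17.9, 11.9 and 15.6 in male soma. In females the PGC values were 17.1, 14.3 and 24.6 CPM and the soma values 11.3, 15.6 and 13.48, which overlap. Chek2 was called higher in male PGCs (0.75 ± 0.14, adjusted p = 2.01e-04) and not in female PGCs (0.28 ± 0.14, adjusted p = 0.0807); the difference between the sexes missed the threshold (-0.47 ± 0.20, adjusted p = 0.0591).

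In mismatch repair all 6 genes were higher in PGCs in both sexes. MSH6 marks base mismatches and small loops, MSH3 larger loops, and MutL proteins such as PMS2 then cut the new strand for the nuclease EXO1. Msh6 stood at 521, 652 and 539 CPM in male PGCs and 119, 107 and 119 in male soma. The female values were 348, 330.3 and 398 CPM in PGCs and, in soma, 121, 132 and 142. Male PGC libraries were above all female PGC libraries, and the PGC-soma difference was 1.94 ± 0.08 in males and 1.14 ± 0.08 in females, smaller in females, with a difference of -0.79 ± 0.11 (adjusted p = 5.62e-05). Msh3 averaged 83.8 ± 4.79 CPM in PGCs and 48.0 ± 3.93 in soma of males, and 57.8 ± 5.84 and 37.9 ± 4.16 in females. It was higher in PGCs by 0.70 ± 0.09 and 0.45 ± 0.09, and lower in female than in male PGCs, with a difference of -0.53 ± 0.09 (adjusted p = 1.23e-04).

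Among the MutL genes, Pms1 read 35.2, 33.5 and 29.0 CPM in male PGCs and 7.54, 13.0 and 10.7 in male soma. In females it read 29.0, 23.9 and 37.3 CPM in PGCs and 13.1, 11.0 and 11.8 in soma. PGCs were above soma in every library, by 1.21 ± 0.14 and 0.88 ± 0.14, with no called difference between PGCs of the sexes (-0.20 ± 0.14, adjusted p = 0.227). Pms2, which carries the endonuclease site, averaged 46.0 ± 3.04 CPM in male PGCs and 84.5 ± 8.68 in female PGCs, with 25.1 ± 0.609 and 28.4 ± 5.58 in soma. Its PGC-soma difference was larger in females by 0.46 ± 0.14 (adjusted p = 0.014). Mlh3, a meiotic MutL partner, averaged 35.1 ± 4.13 CPM in male and 45.8 ± 3.26 in female PGCs, with differences from soma of 0.33 and 0.50. Exo1 read 58.9, 109 and 65.2 CPM in male PGCs and 31.1, 34.2 and 30.9 in male soma. Female PGCs held 122, 106 and 128 CPM and female soma 22.3, 27.6 and 36.1. Male PGC replicate 2 stood above the other male PGC libraries, and PGC and soma did not overlap; the differences were 1.02 ± 0.16 and 1.58 ± 0.16. The difference between the sexes, 0.56 ± 0.23, had an adjusted p of 0.0487, and leaving out any of 9 single libraries, or female soma replicates 1 and 2 together, ended the call.

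All 4 end joining genes were higher in PGCs in both sexes, with medians of 1.66 in males and 1.20 in females. Xrcc5 and Xrcc6 encode KU80 and KU70, which form a ring on broken ends. Xrcc5 stood at 221, 211 and 208 CPM in male PGCs and 52.0, 39.7 and 44.2 in male soma, and at 111, 105 and 105 in female PGCs and 38.7, 38.4 and 54.3 in female soma. Every male PGC library was above every female one, and the PGC-soma difference was 1.85 ± 0.10 in males but 1.00 ± 0.10 in females, with a difference of -0.85 ± 0.14 (adjusted p = 2.28e-04). Xrcc6, its ring partner, read 149, 139 and 136 CPM in male PGCs and 40.6, 42.3 and 40.1 in male soma. In female PGCs it read 164, 161 and 165 CPM, against 42.5, 54.2 and 44.1 in female soma. The PGC-soma differences of Xrcc6 were 1.47 ± 0.07 and 1.40 ± 0.07, and their difference was not called (-0.07 ± 0.10, adjusted p = 0.559). Prkdc encodes the kinase recruited by the ring. It read 154, 137 and 183 CPM in male PGCs and 32.4, 36.8 and 27.3 in male soma, and 231, 236 and 205 in female PGCs and 32.9, 44.0 and 28.1 in female soma. PGC libraries were all far above soma libraries, by 1.87 ± 0.12 in males and 2.11 ± 0.12 in females (adjusted p = 3.49e-09 and 1.56e-09). Lig4, the ligase that seals the ends, differed least of the 4, by 0.31 ± 0.11 in males and 0.36 ± 0.11 in females, and without female soma replicates 1 and 2 its female call was lost (0.19, adjusted p = 0.224).

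Between PGCs of the sexes, 18 of 39 were higher in females and 9 higher in males at equal read depth. Over all genes 32.8% were higher in female and 32.5% in male PGCs, beside 46.2% and 23.1% of the 39. The higher genes included all 4 BRCA genes and 3 of 5 damage kinases, among them Brca2 (1.23 ± 0.12), Atm (1.08 ± 0.11) and Atr (0.91 ± 0.12). Those lower in female PGCs were Fancc, Fancm, Rad50, Xrcc3, Blm, Chek2, Msh3, Msh6 and Xrcc5, with Xrcc5 (-0.92 ± 0.10) and Msh6 (-0.66 ± 0.08) the farthest. Libraries did not overlap for 21 genes with females above and 7 with females below, where 40.6% and 29% of all genes did so. Per cell the counts were 11 higher and 3 lower in female PGCs, against 24.3% and 17.7% of all genes. Meiotic entry markers summed to 2737 to 3773 CPM in female PGCs and 413 to 517 CPM in male PGCs; their part in these differences was not tested.

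**Figure D2:**
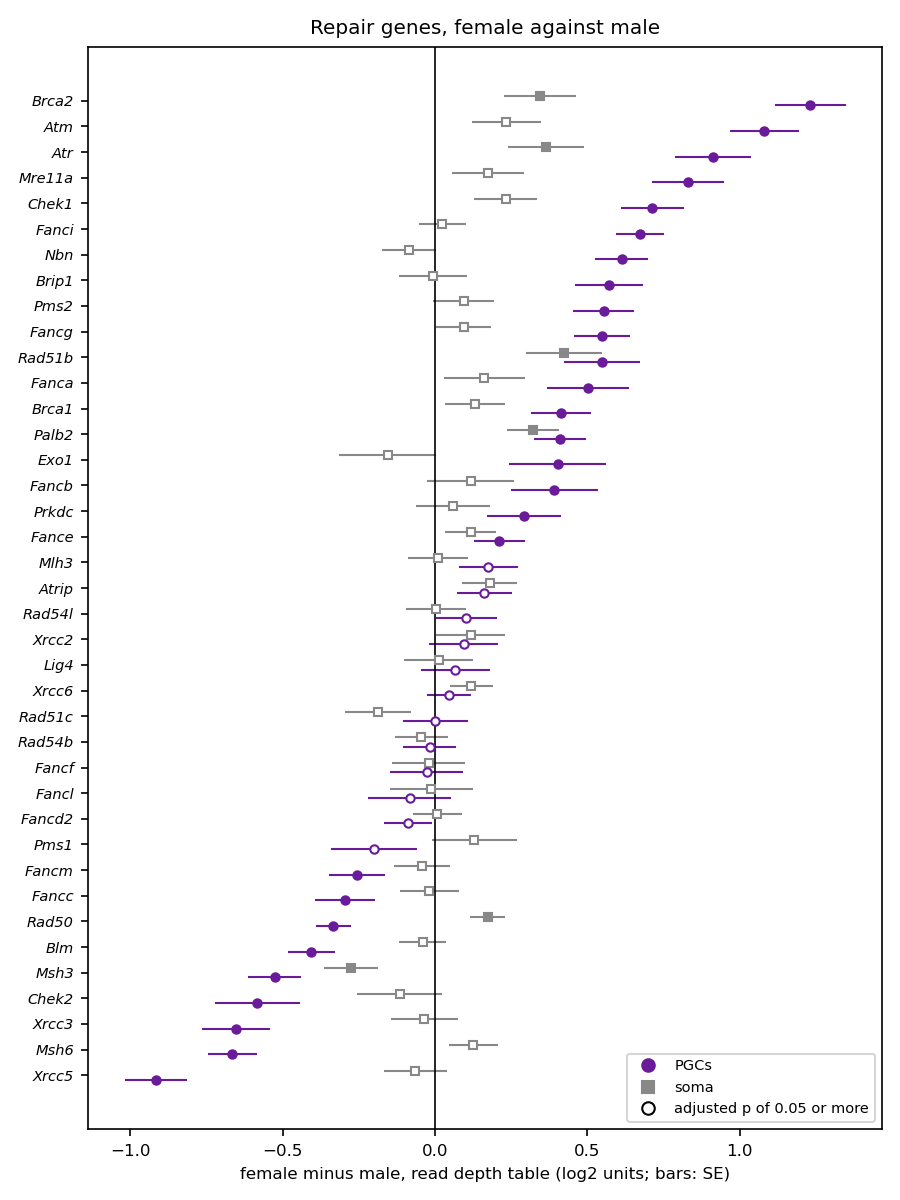
Log2 difference between females and males at equal read depth (x axis) for each of the 39 genes (y axis), with PGCs as circles and soma as squares, standard errors from limma as bars and open markers where not called; genes are in order of the PGC difference. Brca2 lies highest at 1.23 and Xrcc5 lowest at -0.92.

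The PGC-soma difference itself differed between the sexes for 16 of the 39. It was larger in females for 11 (28.2%) and smaller for 5 (12.8%), where 27.9% and 28.9% of all genes were called, so the share on the larger side was near the background. The 11 were Fancg, Fanci, Brca2, Brip1, Mre11a, Nbn, Atm, Atr, Chek1, Pms2 and Exo1, and the 5 were Rad50, Xrcc3, Blm, Msh6 and Xrcc5. Per cell the test called 19 larger and 0 smaller in females, where 42.8% and 5.16% of all genes were called; at an unadjusted p under 0.05 in limma the counts were 22 and 0. Without female soma replicates 1 and 2 the calls at equal read depth for Chek1 (0.33, adjusted p = 0.122) and Exo1 (0.28, adjusted p = 0.367) were lost.

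**Figure D3:**
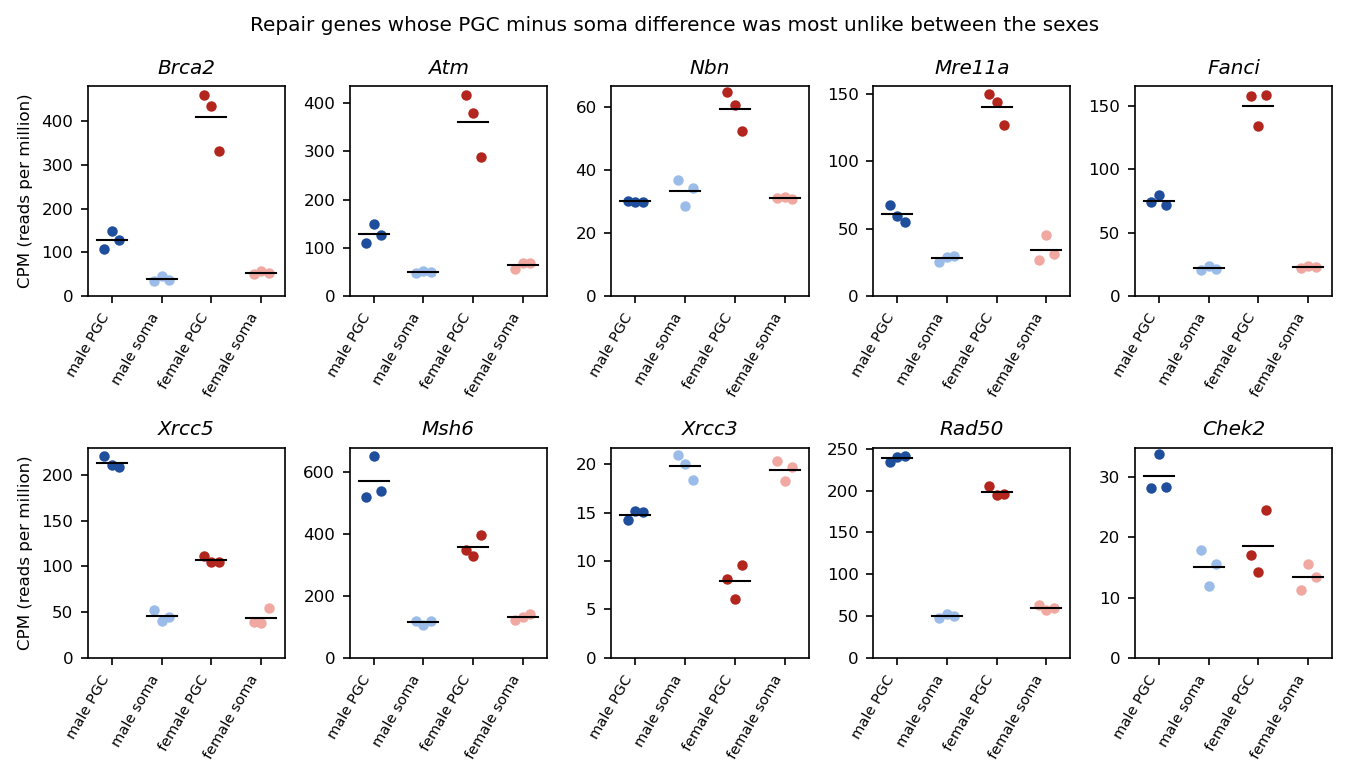
CPM of every library on a linear axis from 0 for the 5 genes with the highest and the 5 with the lowest female minus male value of the PGC-soma difference, with points for the 3 libraries of each group and a line at their mean. Brca2, Atm and Nbn are highest in female PGCs, while Xrcc5, Msh6 and Rad50 are highest in male PGCs.

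Between the somatic fractions fewer members, and fewer of all genes, were called at equal read depth than between PGCs. At equal read depth 5 genes were higher in female soma (Brca2, Palb2, Rad50, Rad51b and Atr) and Msh3 was lower, where 13.3% of all genes were higher and 11% lower. The higher share of the 39, 12.8%, was near that background, and the lower share was 2.56%. Leaving out female soma replicates 1 and 2, the libraries with the most germ cell marker reads, left 1 higher and 0 lower (4 and 0 at an unadjusted p under 0.05 in limma). Libraries did not overlap for 12 genes with female soma above and 1 with female soma below, beside 22.7% and 18.1% of all genes. Per cell, 28 were lower in female soma and 0 higher, beside 63.6% and 2.86% of all genes; at an unadjusted p under 0.05 in limma the counts were 31 and 0. Without female soma replicates 1 and 2 together 0 were lower (1 at an unadjusted p under 0.05), without either alone 11 and 10, and without male soma replicate 3 there were 17.

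Ratios between partner genes within a library are given as descriptions, with no test. The CPM ratio of Xrcc5 to Xrcc6, the subunits of the KU ring, was 1.48, 1.51 and 1.53 in male PGC libraries and 0.677, 0.65 and 0.635 in female ones, with means of 1.11 ± 0.171 in male soma and 0.95 ± 0.263 in female soma. The ratio of Rad50 to Mre11a was 3.45, 4.04 and 4.41 in male PGCs and 1.37, 1.35 and 1.54 in female PGCs, and 1.78 ± 0.135 and 1.83 ± 0.536 in soma. For both ratios male PGC libraries stood above every library of the other groups. For Fanci to Fancd2 the male PGCs stood apart downwards, at 0.553 ± 0.0502, while female PGCs (1.07 ± 0.0764), male soma (1.04 ± 0.0906) and female soma (1.06 ± 0.111) were near each other. Nbn to Rad50 was lowest in male PGCs, at 0.126 ± 0.00304, then in female PGCs (0.298 ± 0.0267), female soma (0.52 ± 0.0309) and male soma (0.666 ± 0.11). Atr to Atrip was 14.8 ± 0.743 in male and 27.1 ± 1.16 in female PGCs against 1.9 ± 0.178 and 2.25 ± 0.493 in soma. Chek1 to Chek2 was 7.69 ± 1.91 in female PGCs and 2.18 ± 0.209 in male PGCs, with 2.3 ± 0.593 and 3.21 ± 0.431 in soma. Brca2 to Brca1 was 1.97 ± 0.26 in female PGCs and 0.985 ± 0.0881 in male PGCs, and Msh6 to Msh3, which compete for the same partner, was 6.21 ± 0.0787 and 6.79 ± 0.456, against 2.41 ± 0.254 in male soma and 3.5 ± 0.405 in female soma. These ratios are descriptions of CPM, not of molecules, since the genes differ in length.

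**Figure D4:**
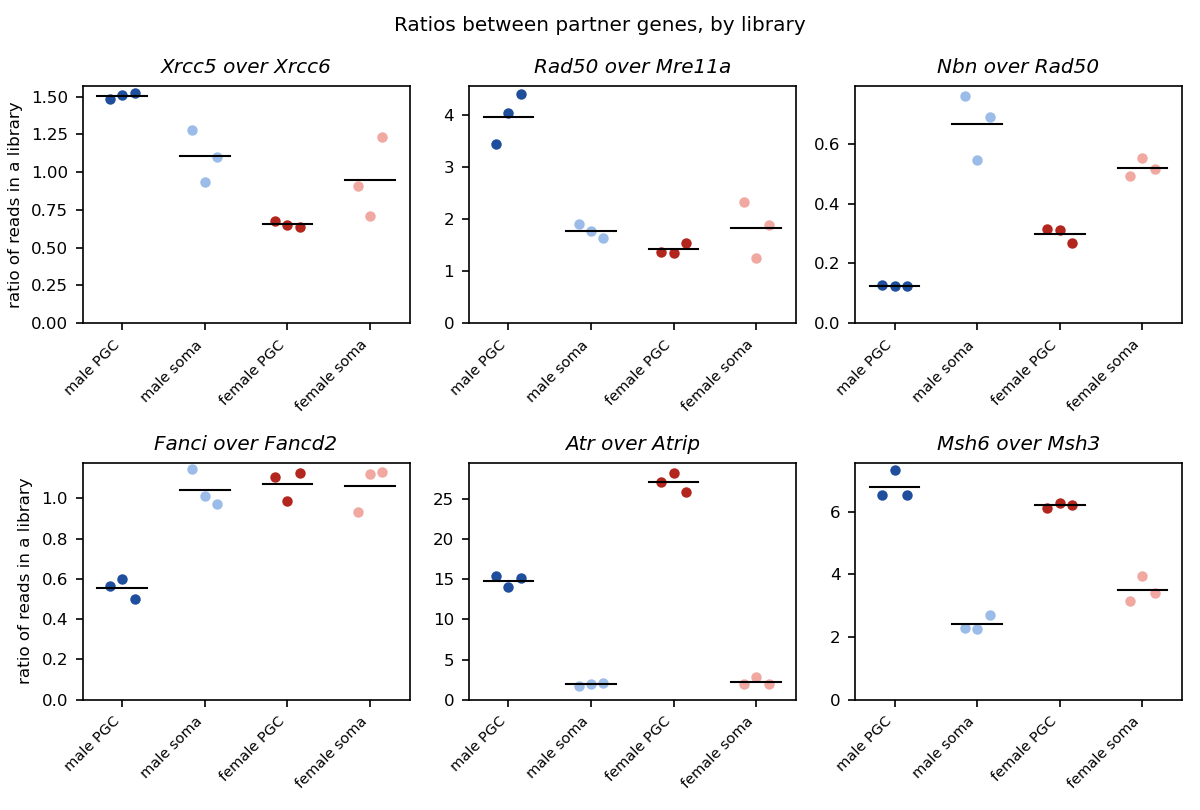
Ratio of CPM between partner genes in each library (points, linear axis from 0), with the 4 groups side by side in each panel and a line at each mean. Male PGC libraries are highest for Xrcc5 over Xrcc6 and for Rad50 over Mre11a, and lowest for Nbn over Rad50 and Fanci over Fancd2.

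Levels of different genes were ranked only per length, as CPM per kilobase of merged exons. On that scale Msh6 was highest in all 4 groups, at 131 ± 16.4 in PGCs and 26.5 ± 1.6 in soma of males and at 82.5 ± 8.06 and 30.3 ± 2.38 in females, and Xrcc5 was second in each. The median of the 39 was 9.35 in PGCs and 3.81 in soma of males, and 14.1 and 3.95 in females. Between neighbours in this order, 29 to 31 of the 38 steps were within the combined SD, so most neighbouring ranks do not differ beyond their spread. Merged exons pool every annotated transcript of a gene, 23629 bases for Atr and 4346 for Msh6. Where the transcripts in use are shorter, the value per kilobase is too low, and this was not examined.

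Promoter sequence was examined because so many members were higher in PGCs together. RefSeq promoters (GRCm38.p6, 250 bases before to 50 after the start) were found for 32 of the 39. Exo1, Fancd2, Nbn, Prkdc, Rad50, Rad54b and Xrcc2 had no promoter listed and are left out of the counts and medians below. They include Fancd2, Prkdc and Rad50, with large differences in males, and Nbn, which was not called there. An E2F-type site is the cell cycle element searched here as TTTCGCGC, TTTGGCGC or TTTCCCGC on both strands. It was in 7 of 32 genes (21.9%), against 4.21% of 9790 measured genes and 1.84% of all 32851 promoters. Genes were counted with a match in any of their promoters, while the last share counts single promoters, here and below. The NF-Y element CCAAT was in 23 (71.9%), against 43.2% and 37.4%. The cell cycle homology element TTTGAA was in 1 (3.12%, against 13.6% and 17.9%), the NRF1 site in 5 (15.6%, against 11.6% and 4.6%) and the ETS site CCGGAAGT in 2 (6.25%, against 8.88% and 3.89%). Of the 7 with an E2F-type site, 7 were higher in male PGCs and 6 in female PGCs, with medians of 1.43 and 1.26; of the 25 without, 22 and 22 were higher, with medians of 0.94 and 1.19. Between PGCs of the sexes, 2 with the site were higher and 3 lower in females, and 13 and 5 without it. For CCAAT the medians with and without the element were 0.98 and 0.81 in males and 1.14 and 1.29 in females. No difference between these sets was tested. The next promoters are shown since they cover a mismatch repair gene with a large rise in males (Msh6), the gene highest in female over male PGCs (Brca2), and a subunit that rose and its partner that fell in females (Rad51c and Xrcc3). Each is written 5′ to 3′ on the strand of the gene, with capitals on E2F-type and CCAAT matches on either strand (as ATTGG where the match is on the other).
Msh6 (chr17:87974800-87975099, plus strand): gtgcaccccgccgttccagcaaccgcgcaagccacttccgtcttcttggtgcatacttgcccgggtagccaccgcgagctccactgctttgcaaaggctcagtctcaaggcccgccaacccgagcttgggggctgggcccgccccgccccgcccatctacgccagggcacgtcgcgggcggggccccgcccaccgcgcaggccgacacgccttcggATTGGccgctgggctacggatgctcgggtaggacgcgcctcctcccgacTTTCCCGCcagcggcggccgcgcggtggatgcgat
Brca2 (chr5:150522371-150522670, plus strand): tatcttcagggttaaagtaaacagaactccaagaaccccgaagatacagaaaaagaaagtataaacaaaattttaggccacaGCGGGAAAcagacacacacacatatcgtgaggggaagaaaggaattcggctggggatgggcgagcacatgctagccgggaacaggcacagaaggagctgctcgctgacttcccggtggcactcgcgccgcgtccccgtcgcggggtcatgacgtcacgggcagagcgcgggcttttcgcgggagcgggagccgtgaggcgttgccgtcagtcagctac
Rad51c (chr11:87404905-87405204, minus strand): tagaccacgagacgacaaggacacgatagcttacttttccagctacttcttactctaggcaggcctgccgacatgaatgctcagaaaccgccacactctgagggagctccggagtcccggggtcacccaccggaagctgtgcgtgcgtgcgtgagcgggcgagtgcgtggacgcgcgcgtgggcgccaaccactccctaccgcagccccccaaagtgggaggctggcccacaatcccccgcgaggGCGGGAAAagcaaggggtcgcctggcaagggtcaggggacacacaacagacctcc
Xrcc3 (chr12:111813830-111814129, minus strand): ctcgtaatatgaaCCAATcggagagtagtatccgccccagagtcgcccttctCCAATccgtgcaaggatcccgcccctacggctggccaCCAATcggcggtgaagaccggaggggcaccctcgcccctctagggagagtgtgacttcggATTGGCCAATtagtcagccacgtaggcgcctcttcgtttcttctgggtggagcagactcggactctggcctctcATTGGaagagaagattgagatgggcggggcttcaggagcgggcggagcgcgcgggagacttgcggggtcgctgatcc
The promoter of Xrcc3, whose share fell in female PGCs, held 6 CCAAT matches and 0 E2F-type matches, and that of Msh6 held 1 of each. Brca2 held 1 E2F-type match, and Rad51c, which has 2 listed starts with the upstream one shown, held 1. A match is a description of letters in this window.

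Some of the members start near a neighbour transcribed the other way. How common such neighbours are among all genes was not counted. A measured neighbour on the opposite strand with a start within 1000 bases was found 18 times, and 10 of these were higher and 5 lower in male PGCs, and 11 and 3 in female PGCs, beside 39.1% of all genes higher and 43.7% lower in males and 38.7% and 42.3% in females. Tex14, a germ cell gene of intercellular bridges that starts 111 bases from Rad51c, was higher in PGCs by 6.15 ± 0.38 in males and 4.66 ± 0.38 in females (adjusted p = 2.07e-09 and 4.97e-08). Tex14 averaged 402 ± 49.2 CPM in male PGCs and 461 ± 26.9 in female PGCs (SD). Its soma means were 1.44 ± 0.308 CPM in males and 11.2 ± 10.4 in females, where the libraries spread widely. Npat, a histone gene activator that starts 307 bases from Atm, was higher by 0.77 ± 0.08 and 1.42 ± 0.08. Pomgnt1, a glycosyltransferase gene that starts 150 bases from Rad54l, differed the other way, by -1.17 ± 0.11 and -1.19 ± 0.11. Among the other neighbours, Nbr1, Ankrd49, Zfyve26, Hscb, Ormdl1, Aimp2 and Mcm4 were higher in PGCs of both sexes, and Brip1os was lower in both. Mospd2, Dctn5 and Zfyve21 were called lower in males, Gas2 was called lower in females, Abhd13 was called higher in females, and Emc3 passed the test in neither sex.

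Other genes of the same pathways were counted on lists made by function. In males, 8 of 15 other Fanconi genes, 20 of 29 other recombination genes, 9 of 12 other mismatch repair genes, 9 of 13 other end joining genes and 15 of 18 other damage signalling genes were higher in PGCs, and 4, 4, 0, 3 and 1 were lower (the mismatch repair count of 0 was also 0 at an unadjusted p under 0.05 in limma). In females the higher counts were 9, 24, 10, 7 and 14, and the lower counts 4, 3, 1, 4 and 3. Over all genes 39.1% were higher and 43.7% lower in male PGCs, and 38.7% and 42.3% in female PGCs. Ube2t, which encodes the ubiquitin conjugase paired with FANCL, averaged 49.2 ± 5.28 CPM in male PGCs and 4.77 ± 0.257 in male soma, with differences of 2.48 ± 0.23 in males and 2.81 ± 0.23 in females. Rpa2, a subunit of the single-strand binding protein, differed by 1.95 ± 0.09 and 1.88 ± 0.09, and Rif1, which limits end resection, by 1.96 ± 0.08 and 1.53 ± 0.08. In base excision repair 10 of 16 were higher in male and 7 in female PGCs, in nucleotide excision repair 16 and 13 of 23, and in DNA replication 20 and 20 of 27. The lower counts in male and female PGCs were 2 and 3 for base excision repair, 4 and 4 for nucleotide excision repair and 2 and 2 for DNA replication. The share of base excision repair genes higher in female PGCs, 43.8%, was near the 38.7% of all genes.

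Mitosis and proliferation genes were counted as well, since cycling cells express many repair genes. In males 12 of 18 were higher in PGCs and 0 lower (1 at an unadjusted p under 0.05 in limma), and in females 11 higher and 3 lower. Between PGCs of the sexes 1 of 18 was higher and 12 lower in females, with a median of -0.47, against 18 higher and 9 lower among the 39 repair genes and 32.8% higher and 32.5% lower over all genes. Cenpf, a kinetochore protein of dividing cells, differed between female and male PGCs by -0.62 ± 0.08 (adjusted p = 1.39e-05). Bub1, a spindle checkpoint kinase, was the 1 gene called higher in female PGCs, by 0.29 ± 0.09 (adjusted p = 0.013). The part of cell division in the repair gene differences was not tested.

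**Figure D5:**
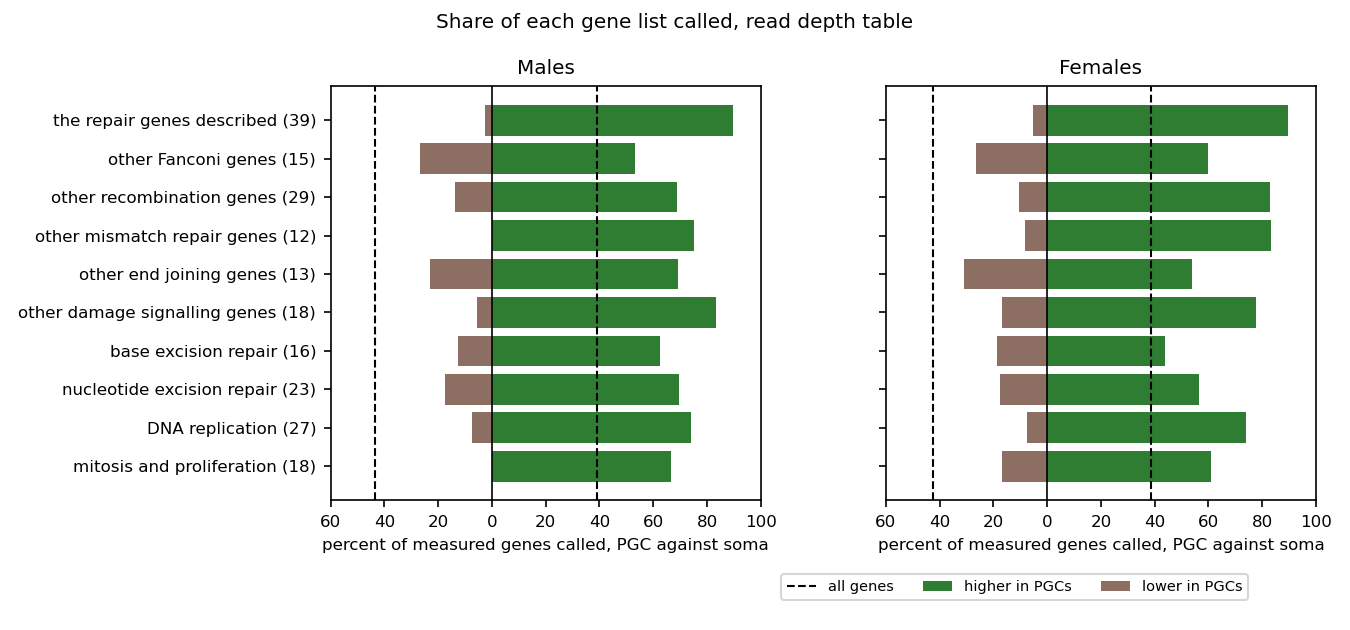
Share of each gene list called higher or lower in PGCs than in soma at equal read depth, in percent of measured genes, for males and females, with higher to the right of 0, lower to the left, and the shares of all 12845 genes as dashed lines. The 39 repair genes are the top bar, with 35 higher in each sex, and the higher share of every list shown lies right of the dashed line.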

How the data were processed

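RNA from 12 libraries (4 groups of 3) was sequenced by the authors with a directional messenger RNA kit. The submitters' processing notes name build mm10 and, with no role given, TopHat2 (2.0.9) and HTSeq (0.6.1p1) besides trimming and normalization tools; annotation and strand setting: not given in the sources used here. The authors deposited log2 values in 2 tables, 1 scaled to cell number, as read from its name and from the spike-in RNA per the labels' protocols, and 1 scaled to read depth. In the cell-number table each value is the log2 of reads plus 0.5 over a library size, so whole reads were recovered (100% of values within 0.001 of a whole number) and turned into CPM. In the read-depth table the transform is not given, and it shrinks differences at every depth (slope 0.482 against the recovered reads for genes under 100 mean reads, 0.792 from 10000).

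Each table was fitted with limma 3.58.1 in R 4.3.3 (intensity trend, 4 group means, all 12 libraries, p-values adjusted by Benjamini-Hochberg over 12845 genes, threshold 0.05) for 5 contrasts, and the script was tested on simulated data. The members, gene lists and rules for naming were chosen with earlier results of these data known. Every member was given in every library where it was called lower, was among those with the largest differences or differed most between the sexes; up to 3 genes of each other list were named by the size of the mean PGC-soma difference. Replicate numbers were not used as pairs. Over 18 pairs of the same number, correlations were -0.361 to 0.071. Between PGCs and soma of the same sex they were -0.071 to 0.071. With 3 libraries a group, these correlations cannot settle whether PGC and soma libraries of a number came from the same gonads. Replicates of a group differed by more than sampling noise (chi-square over degrees of freedom 5.34 to 29.5). Gene positions and exon overlaps were read from GENCODE vM21 (GRCm38) and promoters from RefSeq; 1 neighbouring gene is not reported here. Depth limits low genes most: the median gene had 202 to 894 reads per library.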

Additional observations from a re-analysis of the deposited data

Results flagged for a closer look

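These results were picked out because the test of the difference itself found that the PGC-soma difference at equal read depth was unlike in females and males. Among recombination and Fanconi genes it was larger in females by 0.45 for Fancg, 0.65 for Fanci, 0.89 for Brca2, 0.58 for Brip1, 0.66 for Mre11a and 0.70 for Nbn on the log2 scale. Among damage kinases it was larger by 0.85 for Atm, 0.55 for Atr and 0.48 for Chek1, and in mismatch repair by 0.46 for Pms2 and 0.56 for Exo1. It was smaller in females for Rad50 (-0.51), Xrcc3 (-0.62), Blm (-0.37), Msh6 (-0.79) and Xrcc5 (-0.85). Members of 1 complex or pathway thus appear on both sides: Rad50 against Mre11a and Nbn, and Msh6 against Exo1 and Pms2. The Exo1 call was near the threshold and was lost when single libraries were left out. The calls larger and smaller in females were 28.2% and 12.8% of the members, beside 27.9% and 28.9% of all genes.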

How the results depend on the processing

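At equal read depth the counts of members higher in PGCs stayed within 1.5 times of their values in both sexes, as did those between PGCs of the sexes and for the sex difference of the PGC-soma difference. The counts of lower members moved from 1 in males to 0 with median centring and 0 with quantile normalization and to 2 with voom on the recovered reads, and from 2 in females to 1 with median centring, 1 with quantile normalization and 1 without female soma replicates 1 and 2 together, a setting chosen after the data were seen. Between the somatic fractions the 5 higher became 1 without those libraries, 1 with the lowest 25% of genes left out, 2 without the intensity trend, 3 with robust moderation, 1 with only the groups compared and 1 with voom; leaving out 1 library gave 1 to 5. The 1 lower became 0 without those libraries, 0 with only the groups compared, 0 with voom and 2 with array weights, and 0 to 1 leaving out 1 library.

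Per cell, where the scaling carries the total RNA of a cell, more moved. Members lower in female PGCs than in soma went from 0 to 1 with median centring and 1 with quantile normalization. Between PGCs of the sexes the 11 higher became 18 with array weights and 17 with only the groups compared, and the 3 lower became 9 with median centring, 8 with quantile normalization, 8 with array weights and 7 with only the groups compared; leaving out 1 library gave 5 to 16 higher and 1 to 7 lower. Between somatic fractions the 0 higher became 5 with median centring and 3 with quantile normalization, and the 28 lower became 0 with median centring, 2 with quantile normalization, 2 with only the groups compared and 0 without female soma replicates 1 and 2; leaving out 1 library gave 10 to 33. For the sex difference of the PGC-soma difference the 19 larger became 10 with median centring, 12 with quantile normalization, 30 with array weights and 8 without those libraries, and the 0 smaller became 5 with median centring and 4 with quantile normalization. Voom with TMM factors was planned and not run. The cause was not tested for any of these, beyond fewer libraries where some were left out.

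Directions turned for Atrip and Xrcc3. Atrip in males at equal read depth turned to 0.11 with quantile normalization, and per cell to -0.0869 with median centring. In females Atrip per cell turned to -0.17 with median centring and -0.08775 with quantile normalization. Xrcc3 per cell turned to -0.000126 in males with median centring, and in females to -1.09 with median centring and -0.64 with quantile normalization.

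With the replicate number as a block, the soma counts at equal read depth became 3 higher and 0 lower. The females' count higher in PGCs became 34. In 4 of 18 comparisons with another group, a library correlated best with its own number. All 4 were between PGCs and soma of the same sex, at replicates 2 and 3 in males and in females. Whether the numbers mark pairs was not settled. Exo1 lost a call most often (22 times over its contrasts and alternatives), followed by Fancf (11), Prkdc (8) and Fance (7). Genes with few reads, such as Rad51b, are the most limited by depth.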
